A study of Mus musculus with 12 samples.

Results

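The 9 genes described here, Dlx1, Dlx2, Dlx5, Dlx6, Lhx6, Sp8, Sp9, Gad1 and Gad2, are regulators and enzymes of the ventral forebrain and of the inhibitory neurons born there. They were taken by their symbols from a table of 34102 genes, and all 9 were found. The table covers 12 mouse RNA-seq libraries in 4 groups of 3, all on the C57BL/6 strain. The first pair of groups is cortex: mice labelled Srsf10 conditional knockout (cKO), which are Srsf10 flox/flox and Nestin-Cre+, and their controls, Srsf10 flox/flox and Nestin-Cre-. Srsf10 encodes an RNA-binding protein that takes part in splicing. The Nestin-Cre transgene makes Cre recombinase in neural progenitors, the cells from which neurons and glia derive. Both cortex groups carry the floxed allele, and there is no group with Nestin-Cre alone, so loss of Srsf10 and presence of the transgene cannot be told apart. The other pair is primary neural progenitor cells (NPC) cultured from cortex as suspension cultures: cells labelled SRSF10 knockdown by lentivirus, at a multiplicity of infection of 30 with RNA taken after 72 h, and control cells labelled WT. The sources used here do not give the virus of the control cells, the age of the mice, or whether each library came from its own animal or culture. P-values therefore measure the spread between these libraries, which may be partly technical.

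Cortical inhibitory neurons are not born in the cortex. They arise from progenitors in the ganglionic eminences and the neighbouring preoptic region of the ventral forebrain, and migrate tangentially into the cortex while it forms. Dlx1 and Dlx2, followed by Dlx5 and Dlx6, are homeodomain transcription factors that drive this programme. Lhx6 marks and specifies neurons from the medial eminence, and Sp8 and Sp9 are zinc finger factors of the lateral and caudal eminences and of striatal neurons. Gad1 and Gad2 encode the enzymes that make the transmitter GABA from glutamate, and are used by inhibitory neurons of cortex and striatum alike. A cortical sample that includes striatum or eminence would thus carry more of several of these transcripts.

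The libraries held 26074094 to 36713205 counts. Levels below are CPM, counts scaled to the library total with TMM factors, and changes are log2 fold changes, cKO or knockdown minus control, with their standard error (SE). A gene was called where the quasi-likelihood test of edgeR gave a Benjamini-Hochberg adjusted p under 0.05 over all genes tested. Srsf10 was at 211 ± 20.8 CPM in cKO and 207 ± 11.5 CPM in control cortex, and at 226 ± 11.9 CPM in knockdown and 233 ± 13.7 CPM in control NPC (SD, n = 3 each). Its transcript count was therefore not lower in cKO than in control cortex, with a log2 fold change of 0.03 (edgeR adjusted p = 0.917), and was -0.05 in NPC (adjusted p = 0.774). In cortex, counts summed over all of Srsf10 cannot show whether its floxed stretch was removed. This limit does not cover the NPC, whose label is a knockdown by lentivirus. There the Srsf10 counts show no clear fall under that label, with overlapping groups, a ratio of means of 0.968 and an SE of 0.07. The reason was not tested. The groups of both systems are therefore named below as they are labelled. Of the cortex libraries, cKO replicate 3 and control replicate 2 stood apart by their Ttr, a choroid plexus transcript, at 1082 and 1194 CPM against 2.35 to 100.3 CPM in the other 4. Results in cortex are therefore also given without these 2 libraries.

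Per kilobase of exon, Dlx1 was the most abundant of the 9 transcripts in cortex, at 16.1 ± 1.17 CPM per kb in cKO and 21.9 ± 2.23 CPM per kb in control cortex (SD, n = 3 each). Lhx6 came next, at 14.1 CPM per kb in cKO and 18.8 CPM per kb in control cortex. In cKO cortex Gad1 (11.7 CPM per kb), Gad2 (8.45) and Dlx2 (7.28) followed, and the ranges of neighbours in this order did not overlap from Dlx1 down to Dlx5. In control cortex the order down to Dlx2 was the same, with Gad1 at 12.2, Gad2 at 11.9 and Dlx2 at 10.6 CPM per kb, but there Dlx1 overlapped Lhx6 and these 3 overlapped each other. Dlx5, Sp8, Sp9 and Dlx6 formed the low end, between 1.75 and 3.35 CPM per kb in cKO and between 1.68 and 4.10 CPM per kb in control cortex. The ranges of neighbours among these 4 overlapped in cKO cortex, and in control cortex Dlx5 lay apart from Sp8 while the others overlapped. In NPC Sp8 had the highest mean, at 1.84 CPM per kb in knockdown and 1.54 CPM per kb in control cells. Sp9 came next, at 1.16 and 1.18 CPM per kb, and its range overlapped that of Sp8 in both groups. Lhx6 had no count in any of the 6 NPC libraries.

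Lhx6 lies on chromosome 2 at 36081953 to 36105408 on the minus strand (GRCm38, ENSMUSG00000026890). Its transcript was at 69.2, 63.0 and 70.8 CPM in the 3 cKO libraries, against 90.8, 83.6 and 96.1 CPM in the 3 control libraries. Every cKO library lay below every control library. The means were 67.7 ± 4.16 CPM in cKO and 90.2 ± 6.27 CPM in control cortex (SD, n = 3 each), a ratio of 0.750 and a log2 fold change of -0.41 (SE 0.08, 95% interval -0.60 to -0.23). The edgeR adjusted p of 0.0889 did not pass the threshold, while DESeq2 gave 0.000866, and over all settings tried it ran from 0.000866 to 0.367. Without the 2 Ttr-rich libraries the log2 fold change was -0.50. In a bulk sample, fewer cells of a type and less RNA per cell cannot be told apart.

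Dlx1 lies on the plus strand of chromosome 2 at 71528113 to 71533981 (ENSMUSG00000041911), and Dlx2 on the minus strand at 71543408 to 71546754 (ENSMUSG00000023391), 9.43 kb away. This is a bigene unit, since the Dlx genes of mammals sit in convergently transcribed pairs. Dlx1 was at 93.0, 80.4 and 87.1 CPM in cKO, against 126, 124 and 105 CPM in control cortex. Dlx2 was at 21.4, 20.6 and 20.4 CPM in cKO, against 33.4, 32.9 and 24.2 CPM in control cortex. For both genes the groups did not overlap, control replicate 3 lay nearest to the cKO libraries, and for Dlx2 the spread was wider in control than in cKO cortex. Dlx1 averaged 86.8 ± 6.32 CPM in cKO and 118 ± 12.0 CPM in control cortex (SD, n = 3 each), a log2 fold change of -0.45 (SE 0.09, interval -0.64 to -0.25; adjusted p = 0.0889 by edgeR and 0.0011 by DESeq2, 0.0011 to 0.536 over all settings). Dlx2 averaged 20.8 ± 0.509 CPM in cKO and 30.2 ± 5.20 CPM in control cortex, a log2 change of -0.54 with SE 0.13 (adjusted p = 0.136 by edgeR and 0.0105 by DESeq2, 0.0105 to 0.473 over all settings). Without control replicate 3 the change of Dlx2 was called by edgeR (adjusted p = 0.0499). Without the Ttr-rich libraries the changes were -0.41 for Dlx1 and -0.46 for Dlx2.

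Sp8, on the plus strand of chromosome 12 at 118846329 to 118852576 (ENSMUSG00000048562), was at 9.80, 8.76 and 10.4 CPM in cKO, against 12.8, 16.0 and 13.6 CPM in control cortex. It too did not overlap between the groups, and control replicate 2 was the highest library. Its means were 9.65 ± 0.824 CPM in cKO and 14.1 ± 1.71 CPM in control cortex (SD, n = 3 each), a difference of -0.55 on the log2 scale (SE 0.14). The adjusted p was 0.157 by edgeR and 0.0267 by DESeq2, and ran from 0.0267 to 0.713 over all settings. Without the Ttr-rich libraries the log2 fold change was -0.51.

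**Figure D1:**
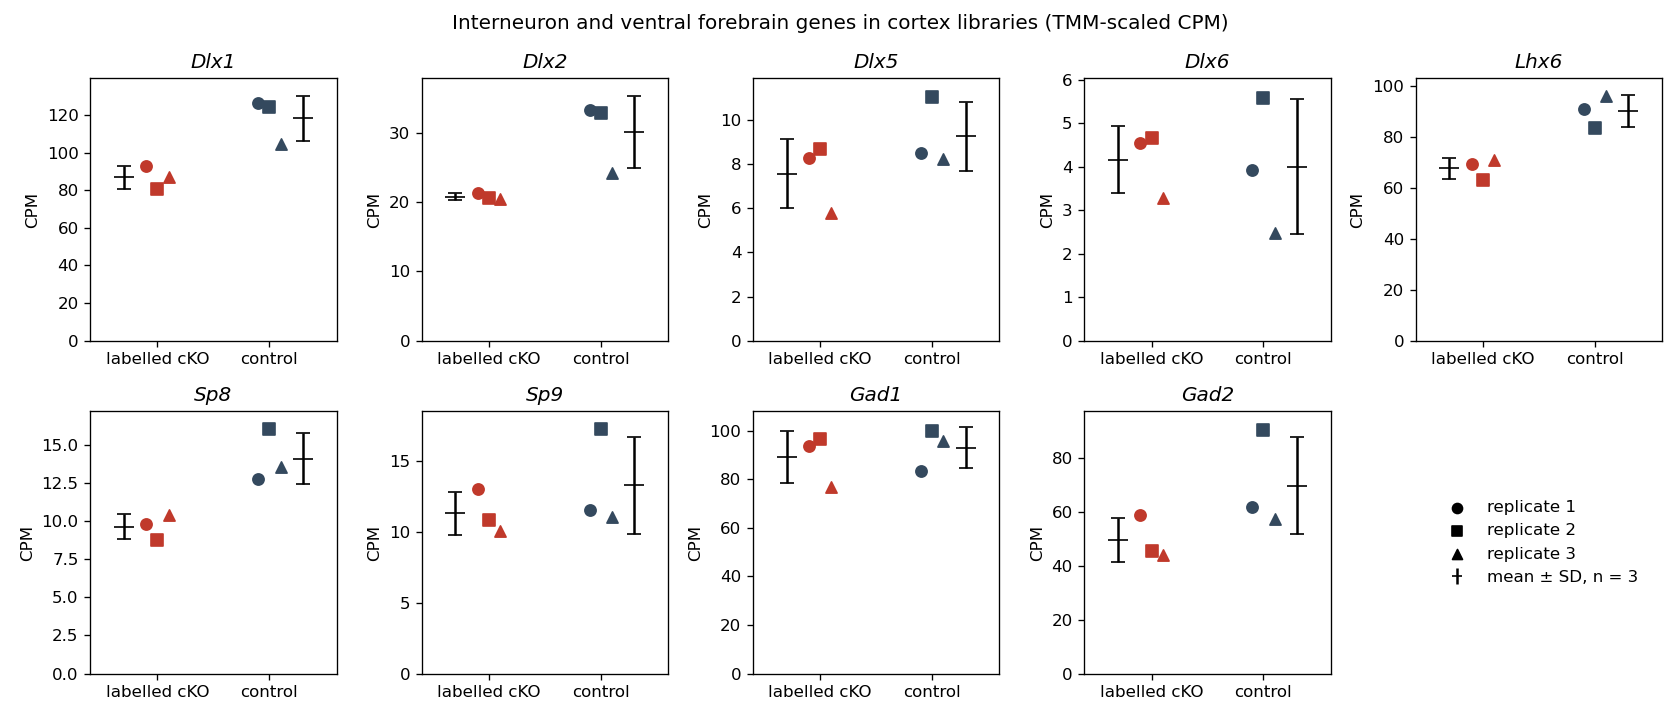
TMM-scaled CPM (linear axis from 0) of the 9 genes in each cortex library, labelled cKO left of control in each panel, with marker shape for the replicate number and bars for the mean ± SD (n = 3). Dlx1, Dlx2, Lhx6 and Sp8 do not overlap between the groups, while control replicate 2 is the highest of the 6 libraries for Dlx5, Dlx6, Sp8, Sp9, Gad1 and Gad2.

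The stretches of 250 bases before the annotated starts of 3 of these 4 genes are shown, as the DNA next to the transcripts that were lower together in cKO cortex. They come from the RefSeq table of GRCm38.p6, run 5′ to 3′ on the strand of the gene, and hold no base of an annotated exon of the gene itself. Capitals mark the GC box GGGCGG on either strand, so that CCGCCC is the same box on the other strand. These letters are read by zinc finger proteins of the Sp family such as Sp1. The window of Dlx1, which is not shown, has all 250 bases in annotated exons of Dlx1 and holds no GGGCGG.
Lhx6, chr2:36105409-36105658, minus strand: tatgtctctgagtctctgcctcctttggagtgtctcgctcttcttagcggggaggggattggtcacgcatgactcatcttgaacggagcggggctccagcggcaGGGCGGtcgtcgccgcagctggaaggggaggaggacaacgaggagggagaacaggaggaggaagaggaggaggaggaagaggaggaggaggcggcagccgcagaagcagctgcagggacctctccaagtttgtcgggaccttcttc
Dlx2, chr2:71546755-71547004, minus strand: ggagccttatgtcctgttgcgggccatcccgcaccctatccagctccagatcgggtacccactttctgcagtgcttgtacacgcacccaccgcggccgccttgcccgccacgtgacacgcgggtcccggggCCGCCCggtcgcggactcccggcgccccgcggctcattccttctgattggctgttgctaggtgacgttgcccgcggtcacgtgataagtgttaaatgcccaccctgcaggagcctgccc
Sp8, chr12:118846983-118847232, plus strand: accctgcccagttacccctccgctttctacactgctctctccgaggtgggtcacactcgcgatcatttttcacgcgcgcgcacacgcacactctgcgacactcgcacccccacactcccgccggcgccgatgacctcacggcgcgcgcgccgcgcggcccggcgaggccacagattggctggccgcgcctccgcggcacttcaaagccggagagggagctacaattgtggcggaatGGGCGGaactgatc
The Sp8 window held 32 CpG, the Dlx2 window 24 and the Lhx6 window 14, against a median of 6 over 32851 windows of the same length. The Sp8 window shown is 1 of 3 for that gene and lies inside the annotated gene, which starts at 118846329. It is the only one of the 3 with GGGCGG, so the box seen for Sp8 depends on which window is shown. The others hold 1 and 6 CpG and no GGGCGG, and the one with 1 CpG ends at 118846328, directly before the annotated start of the gene. The Lhx6 window shown is 1 of 3 as well, and the others hold 17 and 7 CpG, with 1 and 0 matches of GGGCGG. The table held windows for 7 of the 9 genes, 11 in all since Lhx6 and Sp8 have 3 starts each. GGGCGG was found in 6 of the 11 windows, from 5 genes, against 32.7% of all windows. TAATTA, the core read by homeodomains such as those of the Dlx and Lhx proteins, was found in 1 of the 11, at another Sp8 start, against 4.84%. The E-box CANNTG, read by basic helix-loop-helix factors, was found in 6 of the 11, against 66.2%. All 3 motifs were searched on both strands, matches of different motifs were allowed to share letters, and a match is a description of the letters only.

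Dlx5, Dlx6 and Sp9 overlapped between the groups. Dlx5, on chromosome 6 at 6877805 to 6882085 (ENSMUSG00000029755), was at 8.27, 8.70 and 5.78 CPM in cKO, against 8.53, 11.1 and 8.24 CPM in control cortex. Dlx6, its partner 9.24 kb away at 6863334 to 6868568 (ENSMUSG00000029754), was at 4.55, 4.66 and 3.27 CPM in cKO, against 3.93, 5.58 and 2.48 CPM in control cortex. For both genes control replicate 2 was the highest of the 6 libraries. On the log2 scale Dlx5 gave -0.29 (SE 0.19, interval -0.72 to 0.14, edgeR adjusted p = 0.620) and Dlx6 0.06 (SE 0.29, interval -0.59 to 0.71, adjusted p = 0.964). Both intervals hold the value of Dlx1 as well as 0, so a difference of that size is neither shown nor excluded in either gene here. Sp9, on chromosome 2 at 73271925 to 73284706 (ENSMUSG00000068859), was at 13.0, 10.8 and 10.1 CPM in cKO, against 11.6, 17.3 and 11.1 CPM in control cortex, a difference of -0.23 on the log2 scale (SE 0.18, adjusted p = 0.687). Without the Ttr-rich libraries, of which control replicate 2 is one, the values were 0.02 for Dlx5, 0.52 for Dlx6 and 0.07 for Sp9.

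The GABA-synthesising enzymes did not follow one pattern. Gad1, on chromosome 2 from 70553072 to 70602014 (ENSMUSG00000070880), was at 93.8, 96.5 and 77.0 CPM in cKO, against 83.5, 99.9 and 95.6 CPM in control cortex. Its groups overlapped and its log2 fold change was -0.06 (SE 0.10, interval -0.29 to 0.16, edgeR adjusted p = 0.863). Gad2 (ENSMUSG00000026787), also on chromosome 2, was at 59.0, 45.7 and 44.2 CPM in cKO, against 61.9, 90.4 and 57.5 CPM in control cortex. The cKO replicate 1 lay above control replicate 3, and control replicate 2 stood far above all others. The means of Gad2 were 49.6 ± 8.14 CPM in cKO and 69.9 ± 17.9 CPM in control cortex (SD, n = 3 each), a log2 change of -0.49 with SE 0.17 (adjusted p = 0.312 by edgeR and 0.0742 by DESeq2, 0.0742 to 0.697 over all settings). Without control replicate 2 this was -0.27, and without both Ttr-rich libraries -0.19, so that control replicate 2 carries much of the Gad2 difference. The same library was the lowest of the 6 for meningeal fibroblast genes, given below with the other lists.

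Over the 9 genes, 8 log2 fold changes in cortex were negative and 1 positive, with a median of -0.41, against a median of 0.00 and 49.3% negative values over all 15781 genes tested. None of the 9 was called by edgeR, against 0.133% of all genes called lower in cKO. At an unadjusted p under 0.05, 5 of the 9 were lower in cKO (Dlx1, Dlx2, Lhx6, Sp8 and Gad2), against 5.53% of all genes. DESeq2 called 4 of the 9 (Dlx1, Dlx2, Lhx6 and Sp8), against 1.44% of genes called lower. The same 4 did not overlap between the groups, against 8.78% of all genes with every cKO library below every control library. Without the 2 Ttr-rich libraries the median was -0.19, with 5 values negative and 4 positive. The values of Dlx1, Dlx2, Lhx6 and Sp8 ran from -0.68 to -0.37 over the 13 alternative settings. Since the groups of these 4 do not overlap, leaving out libraries could hardly turn their sign. The other settings refit the same counts, so the shared sign is no separate test of direction.

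**Figure D2:**
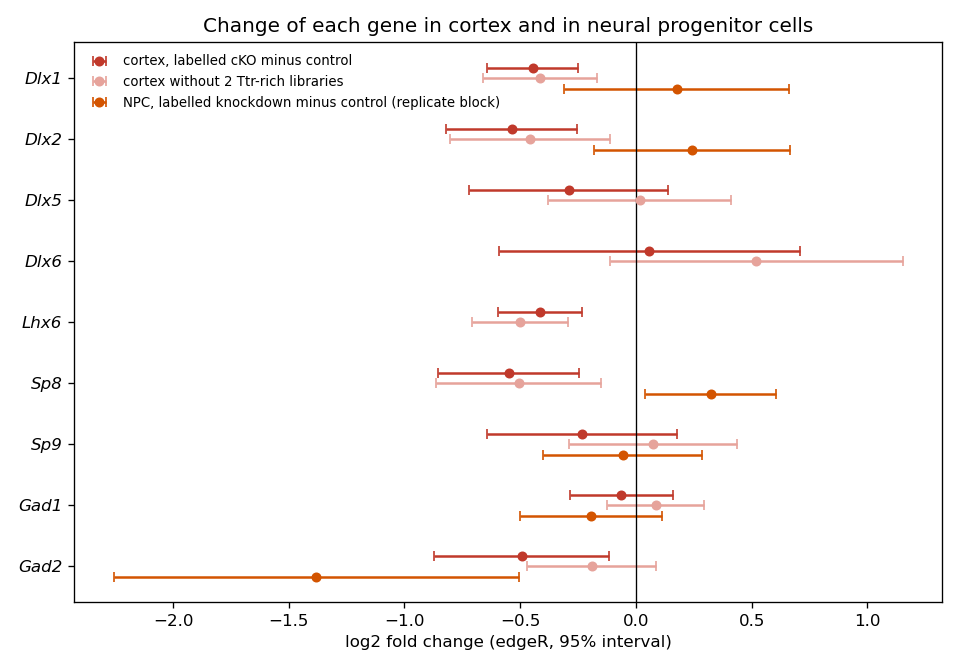
Log2 fold change (x axis) with 95% interval from edgeR for each gene in cortex (labelled cKO minus control), in cortex without the 2 Ttr-rich libraries, and in NPC (labelled knockdown minus control, with the replicate number as a block). Dlx1, Dlx2, Lhx6 and Sp8 lie left of 0 in both cortex fits, whereas Gad2 is at -0.49 with all 6 libraries and -0.19 without the 2; Dlx5, Dlx6 and Lhx6 have no NPC value.

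The antisense RNA of each Dlx pair was counted as a gene of its own. Dlx1as, on the minus strand of chromosome 2 at 71516454 to 71537891 (ENSMUSG00000084946), runs across Dlx1 and shares 335 exonic bases with it. These bases are 6.21% of the exonic length of Dlx1 and 20.6% of that of Dlx1as. Dlx1as was at 53.3, 56.0 and 52.8 CPM in cKO, against 83.9, 80.8 and 74.8 CPM in control cortex, with no overlap. Dlx1as fell in cKO cortex, at 54.1 ± 1.70 CPM in cKO and 79.8 ± 4.62 CPM in control cortex (SD, n = 3 each), a log2 fold change of -0.56 (SE 0.08, edgeR adjusted p = 0.0242; DESeq2 6.32e-08). The edgeR call was lost without any single cKO library (adjusted p = 0.216, 0.101 and 0.126 without replicates 1, 2 and 3). It was also lost without the Ttr-rich libraries (0.0733, log2 fold change -0.54) and with a sex term (0.0567, log2 fold change -0.59). By their Ddx3y, cKO replicate 3 and control replicates 2 and 3 were taken as male, so sex was not balanced between the cortex groups. Adjusted p ran from 6.32e-08 to 0.216 over all settings. The sources used here do not say whether reads were counted by strand, so where Dlx1 and Dlx1as overlap their reads cannot be told apart. Dlx6os1, which spans Dlx6 on the opposite strand (ENSMUSG00000090063) and shares no exonic base with it, was at 35.5, 33.5 and 29.7 CPM in cKO, against 39.2, 62.1 and 41.8 CPM in control cortex. Its log2 fold change was -0.54 (SE 0.16, edgeR adjusted p = 0.240), and -0.23 without the Ttr-rich libraries.

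On chromosome 2 lie 6 of the 9 genes, with Gad1 926 kb before Dlx1 and Sp9 1725 kb beyond Dlx2, so their genomic neighbours were also read. Apart from the 2 antisense genes, 42 other tested genes lay within 500 kb of at least 1 of the 9. Of these, 14 had a negative log2 fold change, the median was 0.03, and 1 (Chn1, a Rac GTPase-activating protein, at -0.25) was lower in cKO at an unadjusted p under 0.05 and without overlap. None of the 42 was called by edgeR, 4 had an unadjusted p under 0.05 by edgeR, and DESeq2 called 1. Over all 15781 genes tested, 49.3% of the values were negative, 1719 had an unadjusted p under 0.05 by edgeR, and DESeq2 called 338. For 8.78% of all genes every cKO library lay below every control library.

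A list of 22 other interneuron genes had 21 tested members in cortex, of which 16 were negative and 5 positive, with a median of -0.19 and of -0.22 without the Ttr-rich libraries. Only Dlx1as, described above, was called by edgeR, against 0.133% of all genes called lower. At an unadjusted p under 0.05 by edgeR, 9 were lower and 1 higher. Over all 15781 genes, 5.53% were lower and 1719 differed in either direction at that p. DESeq2 called 5 lower and 1 higher, against 1.44% of all genes called lower and 124 genes called higher. In 8 of the 21 every cKO library lay below every control library, against 8.78% of all genes, and in 1 above. Npas1, a transcription factor of the bHLH-PAS family found in cortical interneurons, was at 12.4, 11.4 and 13.7 CPM in cKO, against 20.0, 19.2 and 18.0 CPM in control cortex. That is a log2 change of -0.61 with SE 0.11 (adjusted p = 0.0758 by edgeR and 0.000992 by DESeq2, 0.000992 to 0.496 over all settings), the most negative value of the 21. Maf, a transcription factor of interneurons from the medial eminence, was at 36.5, 35.1 and 39.2 CPM in cKO, against 48.1, 47.5 and 52.0 CPM in control cortex, a difference of -0.41 on the log2 scale (SE 0.09; adjusted p = 0.100 by edgeR and 0.00213 by DESeq2, 0.00213 to 0.413 over all settings).

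Nr2f2, a nuclear receptor of the caudal eminence that is also made by other cells of cortex and its vessels, lay the other way. It was at 58.8, 66.3 and 53.0 CPM in cKO, against 39.6, 33.6 and 44.0 CPM in control cortex. Every cKO library exceeded every control library, with a log2 change of 0.60, SE 0.12 (adjusted p = 0.0889 by edgeR and 0.000268 by DESeq2, 0.000268 to 0.696 over all settings) and of 0.58 without the Ttr-rich libraries. Control replicate 2 was the lowest library for Nr2f2 and also for the meningeal fibroblast list, whose part in this value was not tested. Of the genes further down the list, named here after their values were seen, Nxph1, a secreted ligand of neurexins, was at -0.42 (edgeR adjusted p = 0.136) and Slc32a1, the vesicular transporter of GABA, at -0.39 (adjusted p = 0.216), both without overlap. The subtype peptides and calcium-binding proteins gave 0.24 for Sst, 0.02 for Npy, 0.12 for Calb2 and -0.53 for Vip, all with overlapping groups. Vip was low, at 1.11 CPM in cKO and 1.59 CPM in control cortex. Pvalb did not pass the count filter in cortex.

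**Figure D3:**
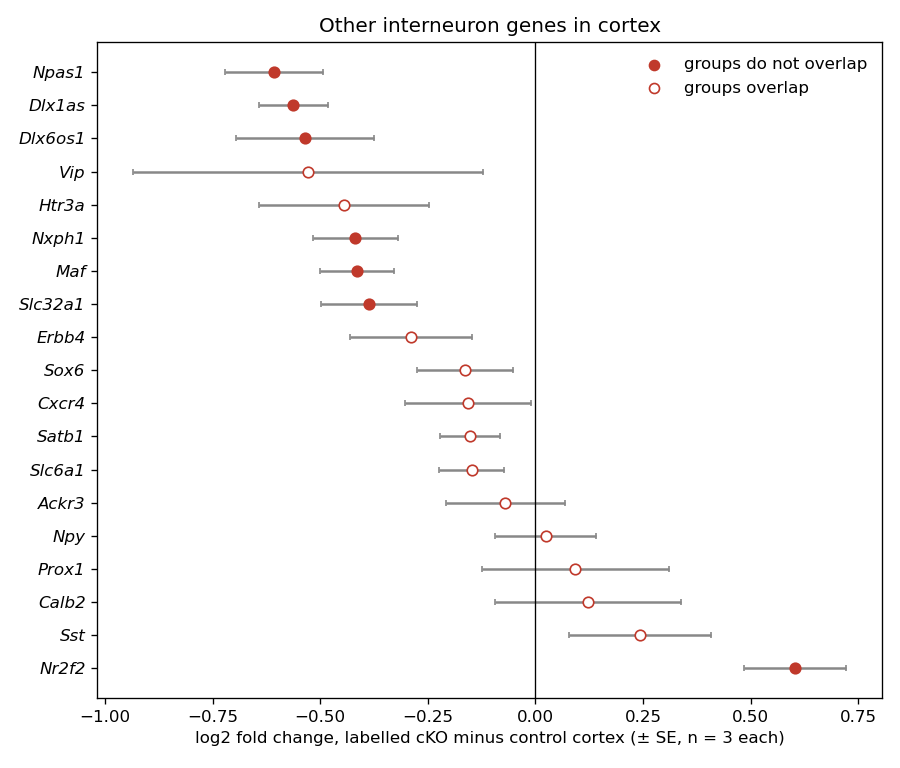
Log2 fold change (x axis, labelled cKO minus control cortex) with its SE for 19 of the 21 tested genes of the interneuron list, ordered by size; filled points have groups that do not overlap (n = 3 each). Of the 7 filled points, 6 lie below 0 and Nr2f2 lies above at 0.60.

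Since a dissection may take in more or less striatum, marker lists of other cell types were read in every cortex library. The 9 genes summed to 372, 339 and 329 CPM in cKO replicates 1 to 3, against 433, 481 and 413 CPM in control replicates 1 to 3, with no overlap. The striatal list of 16 genes summed to 419, 348 and 318 CPM in cKO, against 355, 525 and 299 CPM in control cortex. Control replicate 2 was thus the highest in both sums, whereas control replicate 3 was the lowest of all 6 for striatal genes and still above each cKO library for the 9. Abundant genes weigh most in such a sum. In the mean log2(CPM + 1) of the 9, relative to the mean of the 6 libraries, control replicate 3 was at -0.01 and cKO replicate 1 close below it at -0.05. All 16 striatal genes were tested: 14 were negative, with a median of -0.20, and the median was 0.32 without the Ttr-rich libraries. None of them was called by edgeR or DESeq2, and 0 had an unadjusted p under 0.05. Isl1, a factor of striatal neurons, was at 5.13, 3.32 and 1.96 CPM in cKO, against 4.49, 10.8 and 1.45 CPM in control cortex. Rarb, a retinoic acid receptor of striatum, was at 10.7, 7.13 and 7.33 CPM in cKO, against 8.95, 19.7 and 5.73 CPM in control cortex, so both were highest in control replicate 2. Drd1 (0.20) and Pde10a (-0.16), a dopamine receptor and a phosphodiesterase of striatal neurons, overlapped between the groups.

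Among the remaining lists edgeR called 1 gene in cortex, Gpr17. The 8 genes of all neurons summed to 9663, 9333 and 9360 CPM in cKO, against 9487, 9624 and 9490 CPM in control cortex, with a median log2 fold change of 0.00. The 10 genes of cortical projection neurons had a median of 0.00, with 4 negative and 6 positive. Of the 8 ventral progenitor genes 6 were tested and 5 were negative, with a median of -0.23 and of -0.29 without the Ttr-rich libraries. Olig2, a factor of ventral progenitors and of the oligodendrocyte lineage, was at 28.5, 27.5 and 31.8 CPM in cKO, against 37.8, 34.1 and 31.8 CPM in control cortex (-0.24, adjusted p = 0.417). The oligodendrocyte list of 6 had a median of -0.19, with Gpr17, a receptor of differentiating oligodendrocyte precursors, at 14.8 CPM in cKO and 25.7 CPM in control cortex (log2 fold change -0.79, edgeR adjusted p = 0.0213). That call was lost without any single cKO library (0.158, 0.0740 and 0.120 without replicates 1, 2 and 3) and without the Ttr-rich libraries (0.0733), and adjusted p ran from 6.53e-08 to 0.787 over all settings. Neural progenitor genes had a median of -0.03 over 6 tested, choroid plexus genes -0.04 over 5, meningeal fibroblast genes 0.51 over 6 and erythroid genes -1.14 over 5. Without the Ttr-rich libraries these medians were -0.02, 0.40, 0.14 and -1.26 in the same order. Choroid plexus genes summed to 108, 24.1 and 1122 CPM in cKO, against 6.52, 1247 and 26.3 CPM in control cortex. Meningeal fibroblast genes summed to 162, 261 and 168 CPM in cKO, against 138, 28.3 and 237 CPM in control cortex, so that control replicate 2 was the lowest and the groups overlapped. The part of dissection and of these other cells in the values of the 9 genes was not tested.

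**Figure D4:**
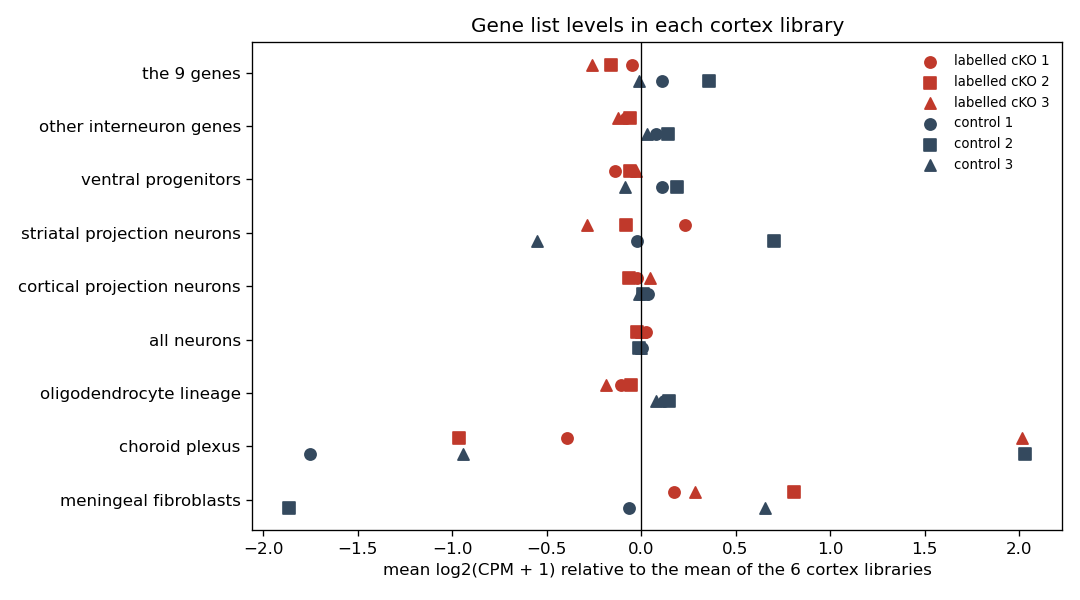
Mean log2(CPM + 1) of the genes in each list relative to the mean of the 6 cortex libraries (x axis, log2 scale), 1 point per library, labelled cKO above control in each row. Control replicate 2 is the highest for both the 9 genes and the striatal list, while the lists of all neurons and of cortical projection neurons stay close to 0 in all 6 libraries.

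Among themselves, the 9 genes varied over the 6 cortex libraries to different degrees with their own mean. Pearson r between a gene and that mean, as a description over 6 libraries that share the group difference and depth, was 0.98 for Gad2, 0.89 for Dlx2, 0.88 for Sp9, 0.87 for Dlx1, 0.86 for Dlx5 and 0.84 for Sp8. It was 0.57 for Lhx6, 0.51 for Gad1 and 0.47 for Dlx6. Each gene is itself part of that mean, which raises its r. Among 11328 other genes averaging 5 CPM or more in cortex, the 8 whose levels were most like the mean of the 9 were Nutf2, Ikbkb, Naa40, Cdca7, Gm39463, Cbr4, Zfp932 and Dapk1, with r from 0.98 to 0.99. These 8 were picked by r itself over 6 libraries, so the size of r is no test of likeness. Their log2 fold changes ran from -0.57 for Gm39463 to -0.07 for Dapk1, with edgeR adjusted p from 0.296 to 0.783. Cdca7 was at 20.9, 17.3 and 16.8 CPM in cKO, against 22.7, 30.3 and 21.2 CPM in control cortex, with control replicate 2 the highest, as for Gad2.

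In NPC, 6 of the 9 genes passed the count filter: Dlx1, Dlx2, Sp8, Sp9, Gad1 and Gad2. Lhx6 had 0 counts in all 6 libraries, which allows up to 0.115 CPM in a library (3 counts, for counting error only). Dlx5 had 5, 0 and 1 counts in knockdown cells, against 3, 3 and 4 in control cells, and Dlx6 had 6, 0 and 5 counts in knockdown, against 0, 2 and 0 in control cells. The cultures carried progenitor markers in both groups, with Nes at 2246 ± 260 CPM in knockdown and 1936 ± 41.6 CPM in control cells (SD, n = 3 each). Olig2 was at 1123 CPM in knockdown and 1062 CPM in control cells. Gsx1, a factor of ventral progenitors, was at 8.53 CPM in knockdown and 12.4 CPM in control cells. Emx1, a defining factor of cortical progenitors, had 0 counts in all 6 NPC libraries, although the cultures are labelled as cortical. Of other regional factors, looked at after these values were seen, Emx2, a factor of the dorsal forebrain, had 1053, 689 and 1025 counts in knockdown, against 1148, 591 and 1045 in control cells. En1, a factor of midbrain and hindbrain, had 34, 308 and 74 counts in knockdown, against 56, 294 and 99 in control cells, and was highest in replicate 2 of both groups. The cultures thus held transcripts of dorsal and of ventral forebrain factors, with no count of Emx1.

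Of the 6 genes tested in NPC, Gad2 had the log2 fold change of largest size. It was at 0.919, 0.195 and 0.547 CPM in knockdown cells (24, 6 and 15 counts), against 1.36, 1.57 and 1.19 CPM in control cells (38, 41 and 35 counts). The groups did not overlap, and knockdown replicate 2 was the lowest. The means were 0.553 ± 0.362 CPM in knockdown and 1.37 ± 0.190 CPM in control cells (SD, n = 3 each), a log2 fold change of -1.32 (SE 0.48, interval -2.44 to -0.20, edgeR adjusted p = 0.215; DESeq2 0.152). With the replicate number as a block, since same-numbered NPC libraries deviated together, Gad2 fell by 1.38 on the log2 scale (SE 0.41, edgeR adjusted p = 0.0246). The blocked call was kept without pair 1 (adjusted p = 0.000125) and lost without pair 2 (0.220) or pair 3 (0.143), and over all settings adjusted p ran from 0.000125 to 0.449. Gad1 was at 6.36, 6.42 and 5.54 CPM in knockdown, against 5.76, 7.37 and 7.89 CPM in control cells, with overlap and a log2 fold change of -0.20 (SE 0.16, edgeR adjusted p = 0.567).

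Sp8 in NPC varied more between replicate numbers than between groups. It was at 13.5, 6.48 and 5.10 CPM in knockdown cells, against 12.8, 4.77 and 3.45 CPM in control cells. Replicate 1 was the highest in both groups, and the knockdown library was the higher one in all 3 pairs. Sp8 gave 0.25 on the log2 scale (SE 0.55, edgeR adjusted p = 0.851), and 0.32 with the block (SE 0.13, interval 0.04 to 0.61, adjusted p = 0.0921). Without pair 1 the blocked value was 0.50 and called (adjusted p = 0.0156), and over all settings adjusted p ran from 0.0156 to 0.990. Dlx2 was at 3.83, 2.11 and 2.84 CPM in knockdown, against 3.33, 2.02 and 2.07 CPM in control cells, and Dlx1 at 3.91, 1.36 and 2.08 CPM in knockdown, against 3.15, 1.64 and 1.56 CPM in control cells. Both were again highest in replicate 1, with log2 fold changes of 0.24 for Dlx2 (SE 0.30, edgeR adjusted p = 0.728) and 0.20 for Dlx1 (SE 0.45, adjusted p = 0.853). The oligodendrocyte list had the same replicate pattern, at 203, 102 and 91.3 CPM summed in knockdown, against 175, 106 and 95.6 CPM in control cells, and its part in these values was not tested. Sp9 lay the other way among replicates, at 3.29, 6.35 and 7.95 CPM in knockdown, against 4.97, 5.88 and 6.94 CPM in control cells (log2 fold change -0.02, SE 0.31, adjusted p = 0.988).

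None of the 6 genes tested in NPC was called by edgeR without the block or by DESeq2. Over all genes, edgeR called 1.89% of 14258 and DESeq2 called 1012 genes. At an unadjusted p under 0.05 by edgeR stood 1 of the 6 (Gad2), against 2616 of the 14258 genes. With the block edgeR called 1 of the 6, Gad2, against 12.8% of all genes called lower in knockdown. The 6 values were 3 negative and 3 positive, with a median of 0.09.

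**Figure D5:**
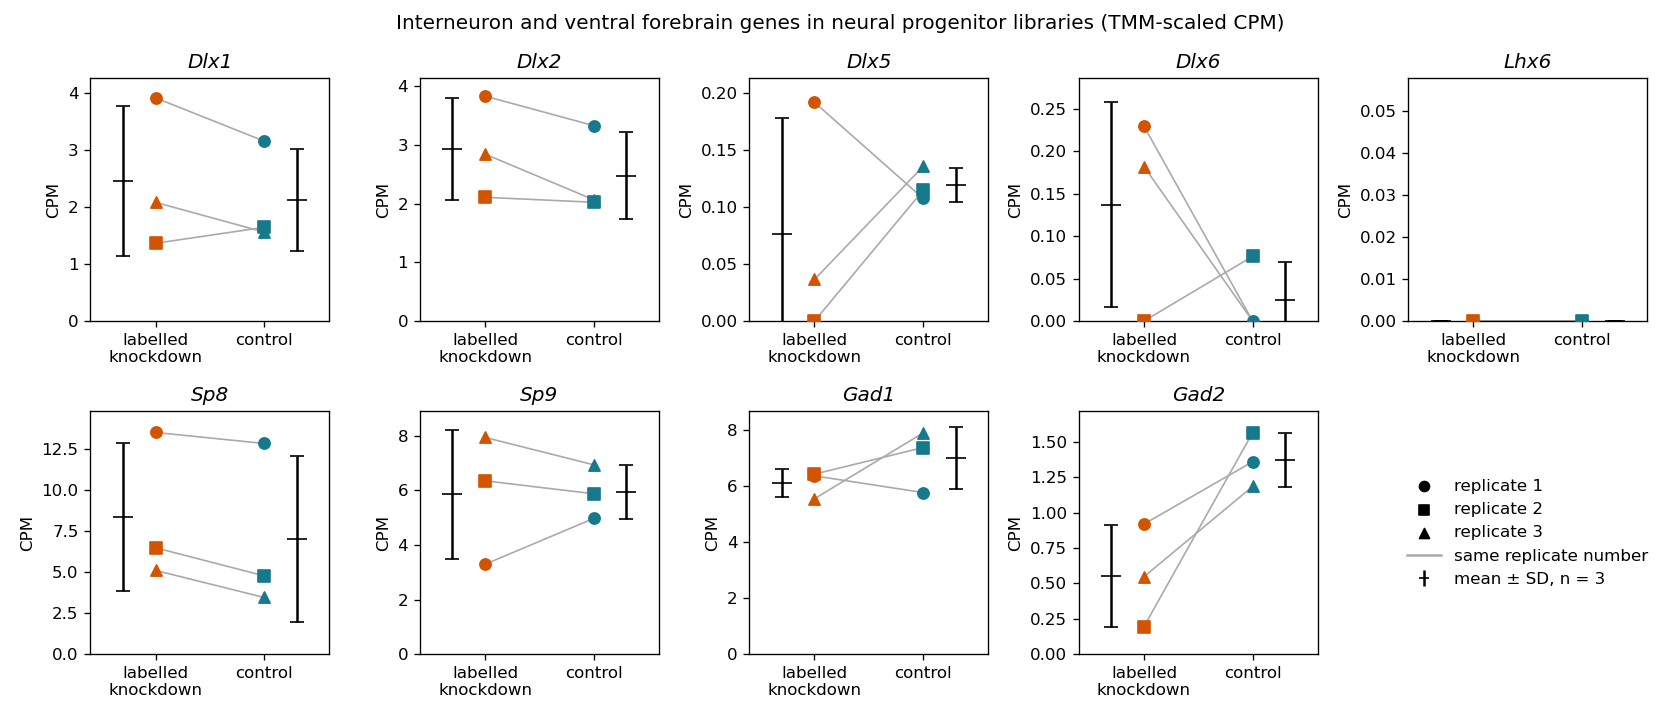
TMM-scaled CPM (linear axis from 0) of the 9 genes in each NPC library, labelled knockdown left of control, with grey lines joining libraries of the same replicate number and bars for the mean ± SD (n = 3). Gad2 is lower in the knockdown library of all 3 pairs, Sp8 and Dlx2 are higher in all 3, and Lhx6 is at 0 throughout.

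Of the 22 other interneuron genes 14 were tested in NPC, with 7 negative and 7 positive and a median of -0.03. Prox1, a homeodomain factor used by progenitors and by interneurons of the caudal eminence, fell in knockdown cells. It was at 45.1, 34.4 and 40.2 CPM in knockdown, against 61.5, 61.8 and 70.6 CPM in control cells, a log2 fold change of -0.70 (SE 0.11, edgeR adjusted p = 0.0309, 5.45e-33 to 0.146 over all settings). Nxph1 fell as well, at 73.4, 78.8 and 70.9 CPM in knockdown, against 93.2, 112 and 106 CPM in control cells (log2 fold change -0.48, SE 0.09, edgeR adjusted p = 0.0427, 2.62e-19 to 0.202 over all settings). In cortex the values were 0.09 for Prox1 and -0.42 for Nxph1. Both NPC calls were kept with the replicate block and were lost without some single libraries, Prox1 without 5 of the 6. Htr3a, a serotonin receptor channel of caudal eminence interneurons, was at 1.57 CPM in knockdown and 0.594 CPM in control cells (log2 fold change 1.41, SE 0.39, edgeR adjusted p = 0.120, 0.00181 to 0.363 over all settings). With the block edgeR called 3 of the 14 lower and 2 higher, against 12.8% of all genes called lower and 11.9% called higher.

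The difference between the systems, NPC minus cortex, was tested for the 6 genes measured in both. It was 0.78 for Dlx2 (SE 0.31, edgeR adjusted p = 0.269), 0.81 for Sp8 (SE 0.59, adjusted p = 0.587) and 0.65 for Dlx1 (SE 0.41, adjusted p = 0.509). It was 0.24 for Sp9, -0.12 for Gad1 and -0.83 for Gad2, with adjusted p of 0.852, 0.829 and 0.446. None of the 6 was called by edgeR or DESeq2, against 1.46% of all genes by edgeR and 783 genes by DESeq2. At an unadjusted p under 0.05 by edgeR stood 1 of the 6 (Dlx2), against 2351 of all 16569 genes. With the replicate block the difference was 0.65 for Dlx1 (interval 0.22 to 1.07, edgeR adjusted p = 0.0977), 0.78 for Dlx2 (interval 0.33 to 1.23, adjusted p = 0.0640) and 0.90 for Sp8 (interval 0.41 to 1.39, adjusted p = 0.0525). These 3 genes, whose signs were opposite in cortex and NPC, did not pass the adjusted threshold with or without the block. With the block their intervals lay above 0. Sp9, Gad1 and Gad2 were at 0.16, -0.12 and -0.86 with the block, each with an interval that held 0. The block in this fit also joined cortex libraries by replicate number, where the numbers do not pair. All these blocked intervals thus rest partly on a pairing that cortex does not show.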

How the data were processed

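RNA-seq was read in 12 mouse libraries, 3 each of cortex labelled cKO, control cortex, NPC labelled knockdown and control NPC. The deposited table holds the authors' raw counts per gene. Reads were aligned with HISAT2 to mm10, per the submitters' processing notes; the sources used here do not give the version, the counting program, its annotation or its strand setting. Every value is a whole number, and library totals ran from 26074094 to 36713205, and 0 columns came from outside the series. Intervals and floors from counts cover counting error only, and the spread between libraries also limits precision.

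Counts were scaled by TMM and filtered by filterByExpr in edgeR 4.0.16 (R 4.3.3), and each system was tested on its own 6 libraries with the quasi-likelihood test, with Benjamini-Hochberg adjustment over all genes tested. The difference between systems was a contrast in 1 fit of all 12. CPM per kb used exonic lengths of GENCODE M21 (GRCm38), which held 34065 of 34102 identifiers. Alternatives were DESeq2 1.42.0, RLE size factors, no count filter, the replicate block, all libraries in 1 fit, a sex term (Ddx3y above 10 CPM taken as male), and leaving out each library or those above 1000 CPM of Ttr. Same-numbered libraries were checked for shared deviations from their group means: r was 0.48, 0.50 and 0.44 in NPC, so the numbers pair those libraries, and 0.02, -0.16 and -0.02 in cortex, where they do not. No pair of libraries within a group agreed within counting noise, so none was treated as a library deposited again, which does not show that they come from separate animals or cultures.

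The 9 genes, the 10 gene lists and the settings were chosen with earlier results of these data known. Named list genes are up to 4 per list with the smallest p in a system, and likeness genes the 8 with the highest r to the mean log2(CPM + 1) of the 9; others are said to be chosen after their values were seen, as were Chn1, Sst, Npy, Calb2, Vip, Pvalb and Dlx6os1. Promoter windows came from RefSeq (GRCm38.p6). Some genes of the lists are not reported here. The fits were tested on simulated counts. Descriptions used Python 3.11.15, numpy 2.4.6 and pandas 2.3.3, and figures matplotlib 3.10.9.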

Additional observations from a re-analysis of the deposited data

How the results depend on the processing

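Of 117 values of single genes in cortex under alternative settings 101 kept direction and side of the threshold, as did 81 of 90 in NPC and 94 of 96 for the difference between systems. In cortex edgeR called 0 of the 9 genes, 3 without a count filter and 4 with DESeq2, and 0 to 1 with a library left out. The median of -0.41 was -0.19 without the Ttr-rich libraries, and -0.43 to -0.27 with single libraries left out. The sign turned for Dlx6 (0.058) without cKO replicate 1, cKO replicate 2 or control replicate 3 (range with libraries left out -0.197 to 0.373) and with sex as a covariate (-0.033). It turned for Gad1 (-0.063) without cKO replicate 3 (range -0.141 to 0.035) and without the Ttr-rich libraries (0.086), and without these for Dlx5 (0.017) and Sp9 (0.074). In NPC 0 of 6 genes were called, and 1 with the replicate block; blocked fits without 1 pair, added after seeing the data as was DESeq2 with the block (0 called; Gad2 adjusted p = 0.0585), called 0 to 2 (Gad2 and Sp8 without pair 1). The NPC median of 0.09 ran from -0.25 to 0.19 with libraries left out. The sign turned for Sp8 (0.25) and Sp9 (-0.015) without control replicate 3 or knockdown replicate 1 (ranges -0.270 to 1.02 and -0.292 to 0.271), for Sp9 in the blocked fit without pair 1 (0.16), and for Dlx1 (0.20) without knockdown replicate 1 (range -0.297 to 0.607). The difference between systems called 0 of 6 in all 16 alternatives, and turned sign for Sp9 (0.24) without NPC knockdown replicate 3 or cortex control replicate 2 (range -0.063 to 0.514). The cause of these changes was not tested. With the replicate block in cortex, where the numbers do not pair, 0 of the 9 were called and Dlx1as was no longer called (adjusted p = 0.134). Over all genes, edgeR called 27 in cortex and 270 in NPC, against 338 and 1012 with DESeq2 and 3522 in NPC with the block. Gad2 rests on 6 to 41 counts a library in NPC.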

Other observations

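The marker lists of the other cell types were also read in NPC. Of 16 striatal genes 9 were tested, with 6 negative and 3 positive and a median of -0.03. Pde10a, a phosphodiesterase of striatal neurons, was at 54.3, 51.0 and 61.2 CPM in knockdown cells, against 73.8, 75.4 and 89.2 CPM in control cells (log2 fold change -0.52, SE 0.10, edgeR adjusted p = 0.0548). Six3, a homeodomain factor of forebrain and striatal lineages, was at 29.5, 35.5 and 39.6 CPM in knockdown, against 43.0, 48.0 and 54.4 CPM in control cells (-0.48, SE 0.13, adjusted p = 0.120). Neither overlapped between the groups, and with the replicate block edgeR called 3 of the 9 lower, Pde10a, Six3 and Adora2a, against 12.8% of all genes called lower. Of the ventral progenitor genes 6 were tested, with 2 negative and 4 positive and a median of 0.05. Sox2, a factor of neural stem cells, was at 245, 196 and 186 CPM in knockdown, against 302, 288 and 294 CPM in control cells (-0.49, SE 0.11, adjusted p = 0.0667). With the block edgeR called Sox2 lower (log2 fold change -0.50, adjusted p = 8.49e-05) and Nes, an intermediate filament of neural progenitors, higher (0.21, adjusted p = 0.0198), where 12.8% of all genes were called lower and 11.9% higher.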
